A study of Mus musculus with 7 samples.

Results

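The miR-23, miR-27 and miR-24 clusters were examined in kidneys of the megabladder mouse, a mutant line with a defect of bladder smooth muscle that blocks the flow of urine and dilates the kidneys. The members were taken by name and not by any measured value: all spots for mmu-miR-23a, mmu-miR-23b, mmu-miR-27a, mmu-miR-27b and mmu-miR-24, without the starred passenger arms, which gave 5 microRNAs of 611 mouse microRNAs on the array. All 5 were among the 213 microRNAs that could be tested. Total RNA of whole kidneys came from 3 male mgb-/- mice (megabladder mice 2, 3 and 4) and from 4 male mgb+/+ mice (wild-type mice 1 to 4), aged 3.5 to 4 weeks, all labelled as 4 weeks old. Each mouse had 1 Agilent array, labelled with Cy3. The labels name no treatment, and they call the mgb-/- kidneys obstructed and the mgb+/+ kidneys normal. The design text counts 4 mutant kidneys, of which that of mouse 1 was not analysed here. The question was whether the members differ between obstructed and normal kidneys, and whether the paralogous clusters, or the members of a cluster, shift against each other.

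MicroRNAs are short RNAs that guide a silencing complex to messenger RNAs, chiefly through the seed, bases 2 to 8 counted from the 5′ end. The miR-23, miR-27 and miR-24 hairpins lie side by side in a pair of paralogous clusters, named a and b. Within each, the hairpins are cut from a shared primary transcript. The clusters are known from endothelium, where miR-23 and miR-27 act on the repressors of vessel growth Sprouty2 and Semaphorin 6A. miR-27 is also known for repressing the fat and lipid regulator PPARγ, and miR-24 for restraining genes of cell division. Which cells of the kidney gave the signal was not measured, since whole kidneys were used, and fewer cells of a type cannot be told apart from less RNA per cell.

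The sequences are shown because they decide what the array can separate. Mature entries were found in RefSeq (GRCm38.p6) for 4 of 5 members, and miR-23b is named only. Capitals mark the seed, and all run on the plus strand.
miR-23a (chr8:84208563-84208583): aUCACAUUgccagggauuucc
miR-27a (chr8:84208727-84208747): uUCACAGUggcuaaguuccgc
miR-27b (chr13:63300760-63300780): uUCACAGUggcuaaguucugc
miR-24 (chr8:84208875-84208896 and chr13:63301251-63301272): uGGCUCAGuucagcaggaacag
miR-27a and miR-27b share the seed and 20 of 21 bases, and the change between them is C19U, with miR-27a first and positions counted from 1 at the 5′ end. miR-24 is the same from both loci, so that its signal cannot be divided between the clusters. For the miR-23 pair, the hairpins are shown, with capitals for the run of 18 bases that opens miR-23a and also stands in the Mir23b hairpin.
Mir23a (chr8:84208518-84208592): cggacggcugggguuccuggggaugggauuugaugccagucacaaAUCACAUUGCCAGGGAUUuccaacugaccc
Mir23b (chr13:63300484-63300557): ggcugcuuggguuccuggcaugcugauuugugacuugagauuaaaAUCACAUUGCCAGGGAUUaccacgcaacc
Probe sequences were not in the files used here, and how far a probe for a paralog also binds the other was not tested.

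The a cluster on chromosome 8 holds Mir23a, Mir27a and Mir24-2 within 404 bases and overlaps no protein-coding gene, with Zswim4 the nearest. The b cluster on chromosome 13 holds Mir23b, Mir27b and Mir24-1 within 792 bases, inside the protein-coding gene Aopep, which codes for an aminopeptidase, and on its strand. Gaps between the hairpins are 79 and 56 bases in the a cluster and 154 and 423 bases in the b cluster.

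All arrays shared 1 slide, where each genotype filled a row of its own. An effect of the row cannot be told apart from that of genotype. The 75th percentile of the 292 probes above background on all 7 arrays, by which arrays were scaled, was 224 to 333 scanner units on megabladder arrays and 348 to 496 units on wild-type arrays. Each member had 2 probes with 10 spots each, and all 700 spots of the members over the 7 arrays were well above background, with none saturated. After leaving out 26 spots marked as outliers, the coefficient of variation between spots of a probe was 0.481% to 7.78%. Probe brightness depends on the probe, so levels are compared between mice and not between microRNAs.

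No member passed the test between the genotypes, and every 95% interval of the fold held 1. In limma with Benjamini-Hochberg adjustment over 213 microRNAs, 0 of 5 members passed an adjusted p of 0.05, and 0 of 5 had an unadjusted p under 0.05, where 7 of all 213 passed (3.29%) and 49 had an unadjusted p under 0.05. Of all tested microRNAs, 2.82% passed as higher and 0.469% as lower in megabladder kidneys. The genotypes overlapped in all 5 members. They did not overlap for 22.1% of the tested microRNAs, 18.8% being higher and 3.29% lower in every megabladder kidney. The median difference of the members was 0.048 log2 units, megabladder minus wild-type, beside 0.087 for all tested microRNAs. These values follow arrays brought to 1 scale, a step that moves all members together and is treated further on.

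miR-23a, the first member of the a cluster, had scaled signals of 593, 608 and 479 units in megabladder mice 2, 3 and 4, against 552, 588, 566 and 528 units in wild-type mice 1 to 4. Megabladder mouse 4 was the lowest of all 7 and mouse 3 the highest, so that wild-type values lay between megabladder ones. The means were 9.12 ± 0.19 log2 units in megabladder kidneys (SD, n = 3) and 9.12 ± 0.065 in wild-type kidneys (SD, n = 4). The difference of -0.0033 log2 units, a fold of 0.998, had a 95% interval of 0.833 to 1.20-fold and an adjusted p of 0.991 in limma.

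miR-27a, the second member of that cluster and the one with the widest spread, had 504, 636 and 446 units in megabladder mice 2, 3 and 4, against 492, 538, 510 and 458 units in wild-type mice 1 to 4. Megabladder mouse 3 stood above every other mouse, and megabladder mouse 4 below every other mouse. On the log2 scale the 3 megabladder values spanned 0.51 units and the 4 wild-type values 0.23 units. Its means were 9.03 ± 0.26 (SD, n = 3) in megabladder and 8.96 ± 0.097 (SD, n = 4) in wild-type kidneys, which is 1.05-fold with an interval of 0.839 to 1.31-fold (limma, adjusted p = 0.873). The positive sign rested on mouse 3, and without that mouse the difference was -0.072.

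In the b cluster, miR-23b had 676, 639 and 569 units in megabladder mice 2, 3 and 4, against 621, 649, 596 and 562 units in wild-type mice 1 to 4. Megabladder mouse 2 was the highest of the 7, and mice 3 and 4 lay within the wild-type range. The fold was 1.03, with an interval of 0.878 to 1.22 (limma, adjusted p = 0.873).

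miR-27b, its neighbour, had 261, 278 and 248 units in megabladder mice 2, 3 and 4, against 275, 270, 243 and 241 units in wild-type mice 1 to 4. Megabladder mouse 3 was just above the highest wild-type mouse and the other megabladder mice lay inside the wild-type range. The fold was 1.02, with an interval of 0.873 to 1.19 (limma, adjusted p = 0.929).

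miR-24, made by both clusters, had 904, 936 and 860 units in megabladder mice 2, 3 and 4, against 831, 862, 812 and 825 units in wild-type mice 1 to 4. Mice 2 and 3 were above all wild-type mice, and mouse 4 was just below the highest wild-type mouse. It had the tightest levels of the 5, at 9.81 ± 0.061 log2 units in megabladder (SD, n = 3) and 9.70 ± 0.036 in wild-type kidneys (SD, n = 4). Its difference of 0.11 log2 units, or 1.08-fold with an interval of 0.948 to 1.23, was the largest among the members and did not pass (limma, adjusted p = 0.505).

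**Figure D1:**
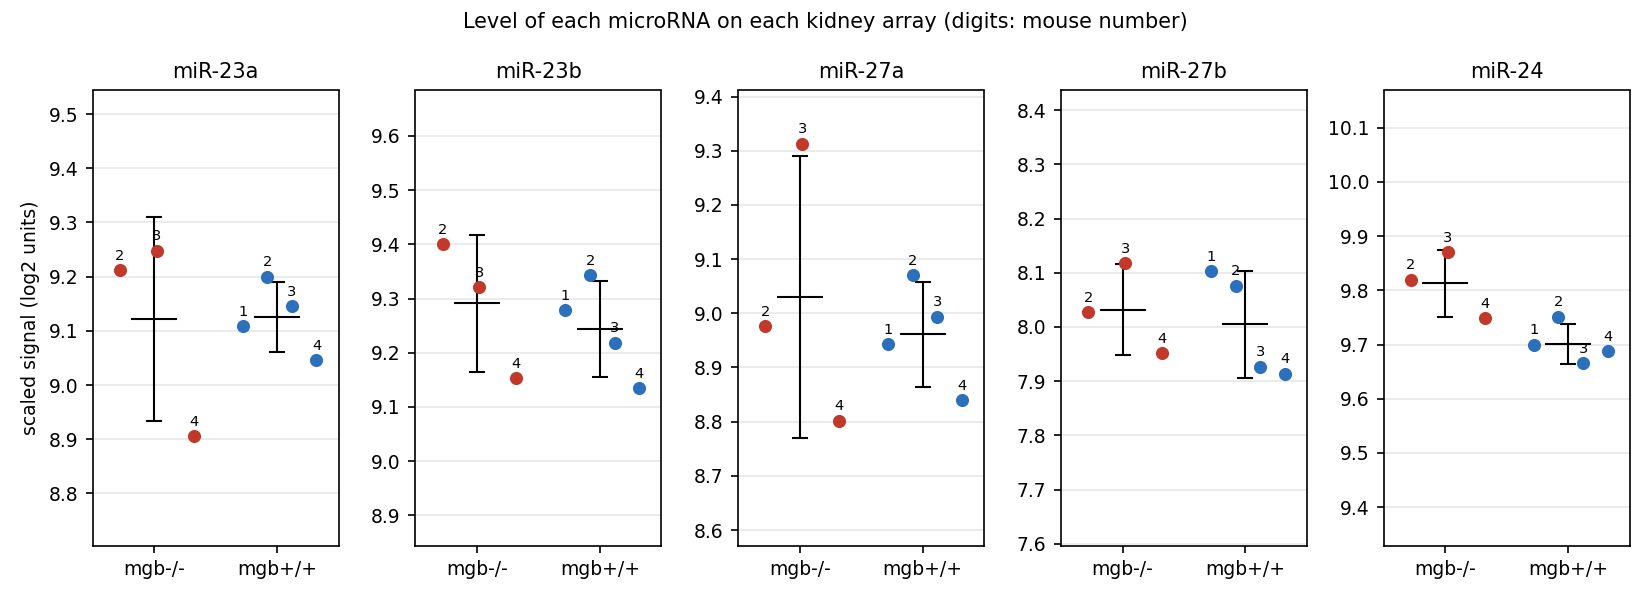
Scaled signal (log2 units) of each member, 1 point per mouse with its number, mgb-/- left and mgb+/+ right; bars give the mean and SD, and each panel has its own position on an axis of equal length. The genotypes overlap in all 5 panels, and megabladder mice 3 and 4 form the top and the bottom of miR-27a.

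Both probes of each member gave near-equal differences. The brighter and the dimmer probe differed by 0.0031 log2 units for miR-24 and by 0.041 for miR-27a, with the other members between these values. For miR-23a the probes fell on either side of 0, at 0.010 and -0.017. The high miR-27a of megabladder mouse 3 was present with both probes, at 0.38 and 0.32 log2 units above the wild-type mean. In the authors' deposited table, that array also had the highest miR-27a value, 974, against 687 to 808 on the other 6 arrays.

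Members of the clusters were next set against each other on the same array, which cancels any factor common to an array. Such a difference has no meaning as a level, since it holds the brightness of different probes, but its change between mice does. The genotypes overlapped in all 10 pairs. In a 2-sided exact permutation test over 35 splits, p was 0.143 to 0.914, and 0.714 to 0.914 after adjustment over the 10 pairs. The smallest p that 35 splits allow is 0.0286 by exact permutation, which for a lone pair becomes 0.286 after adjustment, so that no pair could pass on its own and the test does not show that the balance was kept.

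For the paralogs, miR-23a minus miR-23b was -0.19, -0.073 and -0.25 log2 units in megabladder mice 2, 3 and 4, against -0.17, -0.14, -0.073 and -0.089 in wild-type mice 1 to 4. Megabladder mice 2 and 4 lay below the wild-type range and mouse 3 at its top. The genotype means differed by -0.051 (exact permutation p = 0.343, adjusted p = 0.857). Leaving out megabladder mouse 3 gave -0.100, leaving out megabladder mouse 4 gave -0.012, and quantile scaling of all arrays gave -0.14 (exact permutation p = 0.0857, adjusted p = 0.429). miR-27a minus miR-27b was 0.95, 1.20 and 0.85 in megabladder mice 2, 3 and 4, against 0.84, 0.99, 1.07 and 0.93 in wild-type mice 1 to 4. Mouse 3 was the highest, while mice 2 and 4 were inside the wild-type range. The means differed by 0.042 (exact permutation p = 0.686, adjusted p = 0.857), and by -0.057 without megabladder mouse 3.

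Within the a cluster, miR-27a minus miR-23a was -0.24, 0.065 and -0.10 in megabladder mice 2, 3 and 4, against -0.17, -0.13, -0.15 and -0.21 in wild-type mice 1 to 4. Megabladder mouse 3 was the 1 mouse above 0. Its balance was 0.075 with the brighter probes and 0.056 with the dimmer ones, where every other mouse had a negative value with either. The wild-type values had an SD of 0.032 and the megabladder values 0.15. The means differed by 0.072 (exact permutation p = 0.457, adjusted p = 0.857), and by -0.0059 without mouse 3. Within the b cluster, miR-27b minus miR-23b averaged -1.26 ± 0.099 in megabladder kidneys (SD, n = 3) and -1.24 ± 0.051 in wild-type kidneys (SD, n = 4), a difference of -0.021 (exact permutation p = 0.771, adjusted p = 0.857).

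miR-24 against miR-27b, miR-23a and miR-23b gave the smallest p-values of the 10 pairs, but not against miR-27a. miR-24 minus miR-27b was 1.79, 1.75 and 1.80 in megabladder mice 2, 3 and 4, against 1.60, 1.67, 1.74 and 1.77 in wild-type mice 1 to 4. Megabladder mice 2 and 4 were above all wild-type mice and mouse 3 was below the highest of them. The difference was 0.084 (exact permutation p = 0.143, adjusted p = 0.714). With quantile scaling it was 0.10, at the smallest p that the exact permutation test can give (0.0286, adjusted p = 0.286). In the main setting, miR-24 minus miR-23a differed by 0.12 (exact permutation p = 0.143, adjusted p = 0.714). This rested in part on megabladder mouse 4, at 0.84 against 0.52 to 0.64 in wild-type mice. Without that mouse it was 0.039. miR-24 minus miR-23b differed by 0.064, and by 0.11 without megabladder mouse 2, 0.027 without megabladder mouse 4 and 0.0014 with quantile scaling. miR-24 minus miR-27a differed by 0.043 (exact permutation p = 0.771, adjusted p = 0.857), and the crossed pairs by 0.021 and 0.031.

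**Figure D2:**
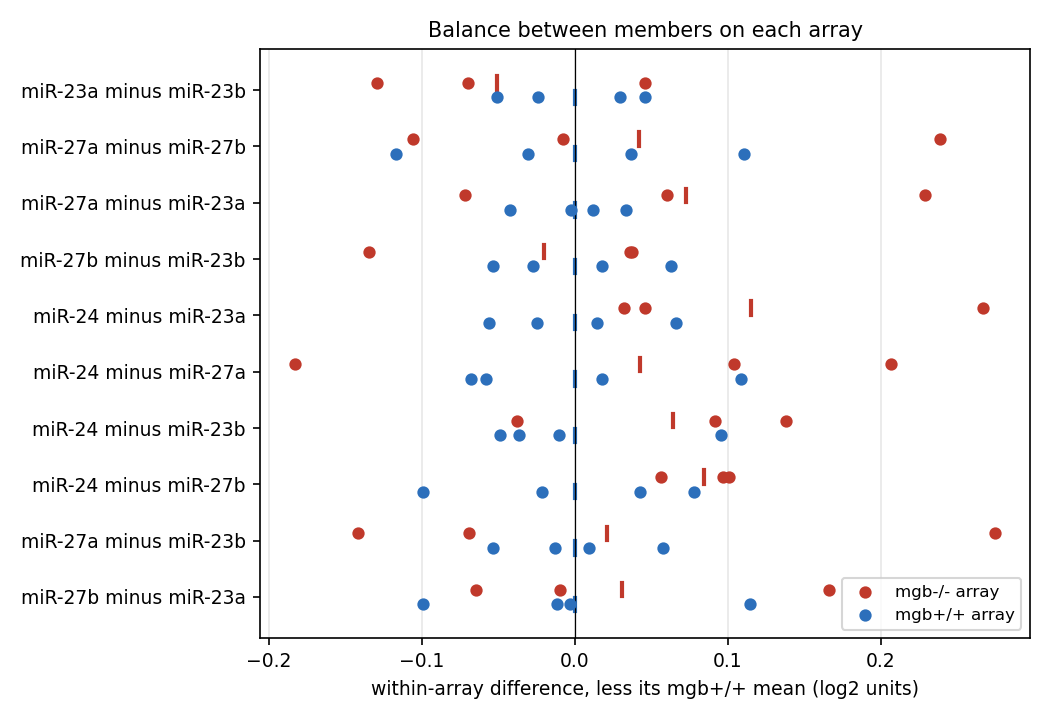
Within-array differences of the 10 pairs of members (log2 units, x axis), each less its mgb+/+ mean, with 1 point per array and ticks at the group means, mgb-/- above mgb+/+ in each row. Points of the genotypes overlap in all 10 pairs; the miR-27a pairs of megabladder mouse 3 with miR-23a, miR-23b and miR-27b, and miR-24 minus miR-23a of mouse 4, lie furthest from the wild-type mean.

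The members varied little over the 7 arrays. Their SDs ran from 0.074 log2 units for miR-24 to 0.17 for miR-27a with a median of 0.099, beside a median of 0.22 for all 213 tested microRNAs. Of the tested microRNAs, 11 had a smaller SD than miR-24, 16 than miR-27b, 26 than miR-23b, 35 than miR-23a and 66 than miR-27a. These are descriptions of bright signals, and dim microRNAs, some held at the floor, are among the 213.

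**Figure D3:**
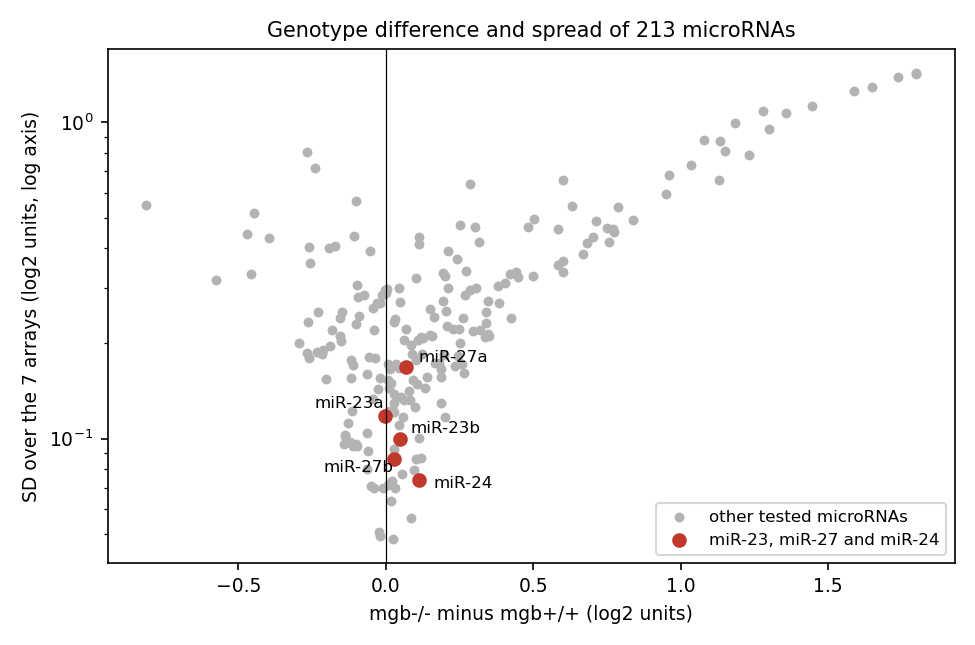
Genotype difference (x axis, log2 units, mgb-/- minus mgb+/+) and SD over the 7 arrays (y axis, log2 units on a log axis) of the 213 tested microRNAs, members in red. The 5 members lie near 0 and below the median SD of 0.22.

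The mean profile of the members, each centred on its own mean, was 0.058, 0.15 and -0.12 log2 units in megabladder mice 2, 3 and 4, against -0.0024, 0.059, -0.039 and -0.10 in wild-type mice 1 to 4. Its highest and lowest point were thus both megabladder mice. As a measure of likeness, the mean absolute difference from this profile was taken over the 7 arrays. The closest microRNAs among the 208 others were miR-151-5p (0.054 log2 units), miR-340-3p (0.055), miR-30e (0.055), miR-350 (0.059) and miR-331-3p (0.060), where the median of the 208 was 0.19. miR-30e belongs to a family abundant in kidney tubules. None of these 5 passed in limma, with differences of -0.024 for miR-30e to 0.11 for miR-350. Their SDs over the 7 arrays were 0.051 to 0.10 log2 units, beside a median of 0.22 for all tested microRNAs. miR-340-3p lay near the floor of 3.51, at 3.63 in megabladder and 3.61 in wild-type kidneys. Since the members vary little, a microRNA of low spread is close by this measure. Closeness does not show that it moves with them. The members themselves lay at 0.034 (miR-23b) to 0.068 (miR-27a) from the profile they define, and 7 other microRNAs were closer to it than miR-27a. Taken singly, miR-23a was nearest to miR-23b, at 0.053 log2 units, with the non-member miR-30c next at 0.055. For the other 4, the nearest microRNA was no member: miR-151-5p for miR-23b, miR-152 for miR-27a, miR-30e for miR-27b and miR-331-3p for miR-24. The limit of low spread holds for miR-151-5p, miR-30e and miR-331-3p here too.

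Passenger arms, the strands of the hairpins that are usually degraded, gave almost no signal. None of the 4, 4 and 2 probes for miR-27a*, miR-27b* and miR-24-2* was well above background on an array. No probe read here was named miR-23a* or miR-23b*, so these arms were not measured. Before scaling, miR-27a* stood at -3.87 to -0.86 units on megabladder and -3.27 to -0.58 units on wild-type arrays. miR-24-1*, from the b cluster, had 1 of 2 probes above background on 3 arrays and lay at 3.52 to 3.60 log2 units in megabladder and 3.51 to 3.62 in wild-type kidneys, where the floor is 3.51. Its difference was 0.025 (limma, adjusted p = 0.929).

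Among mature RefSeq entries, which left miR-23b unmatched, no microRNA on the array other than the members shared bases 2 to 8 with miR-23a, miR-27 or miR-24. The run UCACAGUG at base 2 of miR-27a opens miR-128 at base 1, so that their seeds overlap with a shift. miR-128, known mainly from neurons, was at 4.64, 4.08 and 4.61 log2 units in megabladder mice 2, 3 and 4, against 4.25, 4.25, 4.36 and 4.47 in wild-type mice 1 to 4. Mouse 3, the highest for miR-27a, was the lowest for miR-128. The difference of 0.11 (95% interval -0.26 to 0.48) did not pass (limma, adjusted p = 0.779).

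Among microRNAs known from endothelium and vessel growth, 0 of 8 tested passed in limma as higher and 0 as lower in megabladder kidneys. Of all tested microRNAs, 2.82% and 0.469% did. The list's median difference was -0.040 log2 units beside 0.087 for all tested microRNAs, and 3 of 8 were above 0, where 145 of all 213 were. miR-126-5p, from the endothelial gene Egfl7, had -0.23 (adjusted p = 0.330), miR-130a 0.27 (adjusted p = 0.481) and miR-322 0.21 (adjusted p = 0.598), all in limma. miR-126-3p, the abundant arm of that endothelial hairpin, was at 10.54 ± 0.14 log2 units in megabladder kidneys (SD, n = 3) and 10.60 ± 0.027 in wild-type kidneys (SD, n = 4).

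Markers of kidney cell types were read beside these values. Summed signals mainly follow the brightest microRNA: miR-192 for tubule, miR-126-3p for endothelium and miR-451 for erythroid cells. miR-204 adds little to the tubule sum. Its difference was 0.50 log2 units (limma, adjusted p = 0.403), beside -0.093 for miR-192 and 0.00066 for miR-194. Of the tubule markers miR-192, miR-194 and miR-204 were above background on all 7 arrays and miR-215 on none. Their summed signal was 1758, 1024 and 1767 units in megabladder mice 2, 3 and 4, against 1460 to 1555 units in wild-type mice. Megabladder mouse 3, the mouse with the high miR-27a, had the lowest sums of tubule and endothelial markers. Its sum of the endothelial markers miR-126-3p and miR-126-5p, which the vessel list also holds, was 1364 units, against 1533 and 1668 units in the other megabladder mice and 1565 to 1627 units in wild-type mice. The part of these cell types in its miR-27a was not tested. Summed signals of the 3 erythroid markers were 1952, 2359 and 3724 units in megabladder mice 2, 3 and 4, against 2129 to 2811 units in wild-type mice. Mouse 4, the highest here, was the lowest for miR-23a and miR-27a, and the part of erythroid cells in these was not tested. Those of leukocyte markers were 120.2 to 170.9 units in megabladder and 126.1 to 174.6 units in wild-type kidneys, and those of smooth muscle markers 166 to 207 units in megabladder and 150.2 to 190.5 units in wild-type kidneys. The smooth muscle marker miR-133a was above background on no array. For urothelium the sums were 115, 59.7 and 73.2 units in megabladder mice 2, 3 and 4, against 58.8 to 64.0 units in wild-type mice. The urothelium marker miR-205 had the largest difference of all these markers, 1.23 log2 units (limma, adjusted p = 0.0712), with every wild-type kidney at the floor. miR-31 had 0.44 and miR-203 -0.17. No marker of these lists passed in limma, where 3.29% of all tested microRNAs did. Markers tested were 3 of 4 for tubule, 2 of 2 for endothelium and 3 of 3 for erythroid cells. They were 3 of 5 for leukocytes, 2 of 5 for smooth muscle and 3 of 3 for urothelium.

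How the arrays are brought to 1 scale moves all 5 members and turns the sign of miR-23b, miR-27a, miR-27b and miR-24. Without scaling they were -0.62 to -0.50 log2 units in megabladder against wild-type kidneys, and the median of all 213 microRNAs was -0.49. Scaling by all probes gave -0.73 to -0.61 beside a median of -0.60, scaling by the median -0.16 to -0.045 beside -0.061, and quantiles -0.033 to 0.10 beside -0.14. No member passed under any of these. Without scaling, 4 members had an unadjusted p under 0.05 in limma, as did 103 of all 213 microRNAs. With all probes, 3 members had one, as did 95 of the 213. The lowest adjusted p in limma was 0.0728, for miR-27b without scaling. Relative to the median of all tested microRNAs the members lay at -0.13 to 0.025 without scaling and with the 3 scalings by a percentile or median. With quantiles they lay 0.11 to 0.24 above that median. With normexp background correction the median of all tested microRNAs was 0.42 and the members stood at -0.45 to -0.33 relative to it, and in the authors' deposited table they lay 0.059 to 0.15 above the median difference of the 191 microRNAs tested there.

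**Figure D4:**
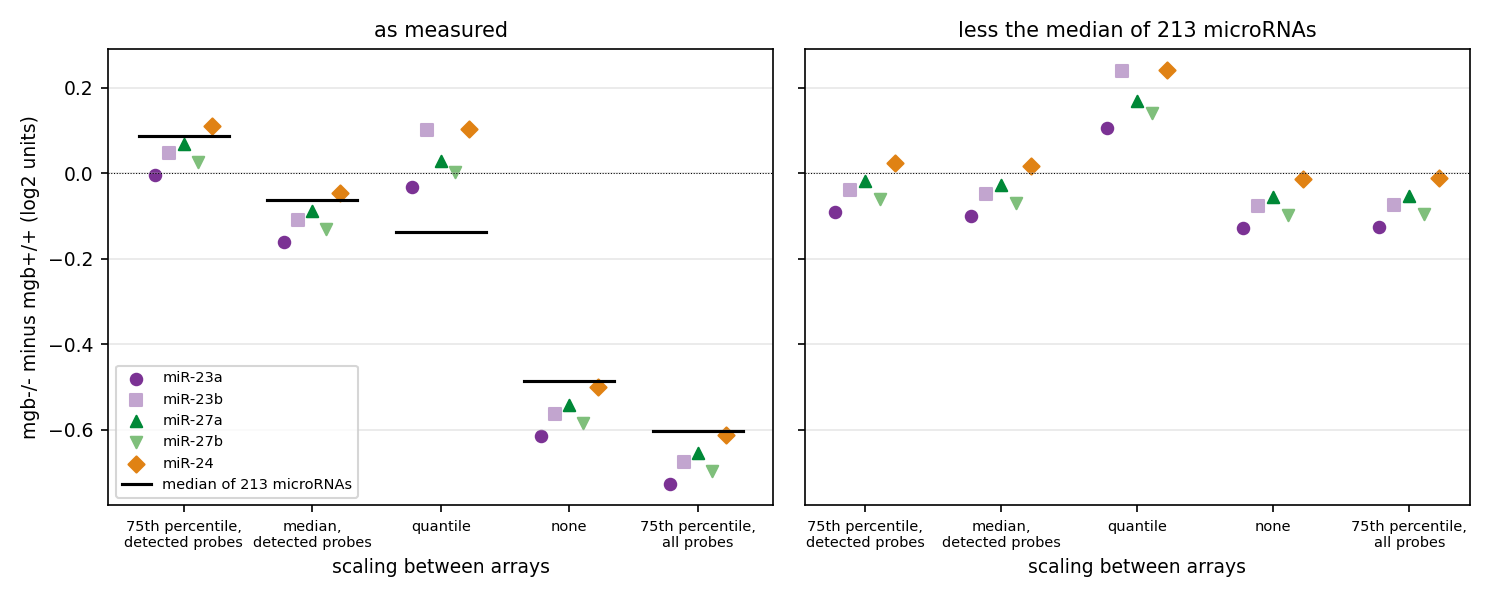
Genotype difference (y axis, log2 units, mgb-/- minus mgb+/+) of the 5 members under 5 ways of scaling the arrays, as measured at left with a black line at the median of the 213 microRNAs, and less that median at right. The members move with the median, from near 0 to about the -0.60 of scaling by all probes, and stay within -0.13 to 0.025 of it except with quantiles.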

How the data were processed

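Whole-kidney RNA (100 ng per mouse) was read on 1-colour arrays. The deposited spot files hold intensity values that Agilent Feature Extraction 10.7.3.1 read from each scan, per the submitters' processing notes, and arrays are not scaled to each other. A series table deposited by the authors gives 1 intensity per microRNA (20 to 9741). The sources used here do not give its scaling. Of its names in alphabetical order, the first 532 followed the total gene signal of their own microRNA, and all 5 members are among them; that part served as an alternative.

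Background-subtracted signals were averaged per probe without control and outlier spots, scaled by the 75th percentile of 292 probes above background on all arrays, floored at 11.4 units and put on a log2 scale. A microRNA's level is the mean over its probes above background on at least 3 arrays, a probe counting where at least 0.5 of its spots did. Genotypes were compared with limma 3.58.1 in R 4.3.3 over 213 microRNAs at an adjusted p of 0.05. Intervals are at 95%. Pairs of members were compared with exact permutation tests in Python 3.11.15. The fit and the permutation test were checked on simulated data. The labels name separate mice. The number of arrays limits the precision. The same replicate numbers stand in both genotypes, but no label says that they pair mice. Named microRNAs are the members, their passenger arms, seed relatives, the 5 closest profiles, a vessel list and cell type markers. Members, lists and alternatives were chosen with earlier results of these data known. Normexp used the median spot signal, since no mean spot signal was in the files.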

Additional observations from a re-analysis of the deposited data

How the results depend on the processing

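No member passed under any of 23 alternatives, where the lowest adjusted p was 0.0728. Besides the scalings named above, 1 member had an unadjusted p under 0.05 in limma with no filter on dim probes, beside 40 of all 611 microRNAs. With a floor 2 times as high it was also 1 member, beside 32 of all 213 microRNAs. Signs of members changed with the scaling. By all probes, the median and no scaling, miR-23b had -0.68, -0.11 and -0.56, miR-27a -0.66, -0.088 and -0.54, miR-27b -0.70, -0.13 and -0.58, and miR-24 -0.61, -0.045 and -0.50. miR-23a, near 0, turned to 0.017 with total gene signal, 0.023 in the authors' deposited values, 0.010 with the brightest probe and 0.021 with array weights, whose estimate stopped before full convergence. Array weights turned miR-27a to -0.0010 and miR-27b to -0.0021. Leaving out wild-type mice 3 and 4 turned miR-23b to -0.019 and miR-27b to -0.058. The wild-type arrays fell into close pairs. The median absolute difference between arrays was 0.078 log2 units for mice 1 and 2 and 0.064 for mice 3 and 4. Between wild-type arrays of different pairs it was 0.18 to 0.21, and among megabladder arrays 0.15 to 0.34. The cause of this grouping was not tested. Leaving out 1 array at a time gave -0.066 to 0.10 for miR-23a, -0.0066 to 0.12 for miR-23b, -0.072 to 0.18 for miR-27a, -0.016 to 0.068 for miR-27b and 0.083 to 0.14 for miR-24.

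Of the pairs, the deposited values turned miR-23a minus miR-23b to 0.012 and miR-27b minus miR-23b to 0.019. Normexp turned miR-27a minus miR-27b to -0.036, miR-27b minus miR-23b to 0.081, miR-24 minus miR-27a to -0.024 and miR-24 minus miR-27b to -0.060. Quantiles turned miR-27a minus miR-23b to -0.072 and moved miR-27b minus miR-23b to -0.099, and leaving out wild-type mice 3 and 4 turned miR-27b minus miR-23a to -0.025. Leaving out 1 array gave -0.100 to -0.012 for miR-23a minus miR-23b, 0.039 to 0.16 for miR-24 minus miR-23a, 0.027 to 0.11 for miR-24 minus miR-23b, 0.051 to 0.11 for miR-24 minus miR-27b, -0.057 to 0.12 for miR-27a minus miR-27b, -0.0059 to 0.14 for miR-27a minus miR-23a, -0.049 to 0.036 for miR-27b minus miR-23b, -0.039 to 0.16 for miR-24 minus miR-27a, -0.11 to 0.10 for miR-27a minus miR-23b and -0.037 to 0.078 for miR-27b minus miR-23a. The cause was not tested in any of these.

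The count over all microRNAs was 7 in the main setting, 6 of them higher in megabladder kidneys, and 71 unscaled, 70 of them lower. It was 17 with array weights and 4 with probes above background on all arrays. With the median, and with a floor 2 times as high, it was 2. With the deposited values, and without wild-type mice 3 and 4, it was 1. In limma it was 0 with all probes (95 at an unadjusted p under 0.05), quantiles (41), total gene signal (26), normexp (53), no filter (40) and a floor of 1 unit (30). Leaving out 1 array gave 0 to 19: 19 without megabladder mouse 3, 6 without megabladder mouse 4, 1 without wild-type mouse 4, and 0 without megabladder mouse 2 (32 at an unadjusted p under 0.05) or without wild-type mouse 1, 2 or 3 (47, 46 and 26). With the replicate number as a block, wild-type mouse 1 had no partner and so no weight. The count was then 28, the members had -0.0088 to 0.11, and miR-27b minus miR-23b turned to 0.00052. Deviations of same-numbered mice correlated at -0.21, 0.0066 and 0.21. Those of megabladder and wild-type mice with different numbers correlated at -0.29 to 0.32. These values cannot show whether the numbers pair mice.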
